A study of Homo sapiens with 20 samples.

Results

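The early response to estradiol was measured by setting SUM44 cells, a long-established line of human breast cancer, after 3 h with the hormone against the same cells after 3 h with vehicle. The 4 arrays titled as estradiol at 3 h (here E2) and the 4 titled as vehicle at 3 h make up the comparison, 8 of the 20 arrays of the study, and the grouping came from the sample titles alone. Both groups were SUM44 cells kept in charcoal-stripped serum for 3 days, so that hormone deprivation was shared by treated and control cells. E2 cells then received 1 nM estradiol and vehicle cells 0.01% ethanol, and the untreated baseline of 4 arrays was taken at 0 h from cells deprived in the same way. The labels call the replicates biological quadruplicates without saying what separated them, and their sample and series texts name different serum percentages. A single cell line was used, so the arrays measure the spread between cultures of SUM44 and not between tumours. RNA was measured on Affymetrix expression arrays.

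Estradiol enters cells and binds the estrogen receptor, a nuclear receptor and transcription factor that attaches to DNA at estrogen response elements, directly or through other factors, and recruits coactivators or corepressors. RNA that changes within hours is commonly taken to include genes next to receptor-bound enhancers, together with genes under the transcription factors and kinase pathways that respond first. SUM44 was derived from a breast cancer of the lobular type, which usually carries the estrogen receptor.

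Each of the 11963 genes was represented by its brightest probe set, and a gene was called when the limma test, Benjamini-Hochberg adjusted over all genes, gave an adjusted p under 0.05. The 4 arrays within each group correlated at 0.998 to 0.999 over genes, and E2 with vehicle arrays at 0.990 to 0.991. Probe sets for the 3' and 5' ends of ACTB, a control for RNA integrity and labelling, differed by 0.343 to 0.419 on the log2 scale on E2 arrays and by 0.291 to 0.339 on vehicle arrays. For GAPDH the same difference was -0.153 to -0.129 on E2 arrays and -0.122 to -0.104 on vehicle arrays, so that neither control overlapped between the groups, and the part of this in the results was not tested. Of the markers of luminal epithelium, 13 were measured and 0 lay in the dimmest 25% of genes, while 6 of 7 basal, 7 of 13 stromal and 8 of 12 immune or endothelial markers did. Array values are relative to the other RNA of the same sample, so that fewer expressing cells and less RNA per cell cannot be told apart, here or in any result that follows.

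E2 changed many genes by a little and a few by a lot. Of 11963 genes, 3720 were called (31.1% of those tested), 1619 higher (13.5%) and 2101 lower (17.6%) with E2, and the median difference over all genes was 0.00. At least 1.5-fold changes were called in 326 genes upward (2.73%) and 309 downward (2.58%), 635 in all (5.31%), while 82.9% of the called genes changed by less than that. A 4-fold change was reached by 20 genes upward and 11 downward. The 2 groups of arrays did not overlap for 30.6% of all genes.

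RASGRP1, HSD11B2 and EGR3 had the 3 largest rises. RASGRP1, an exchange factor that activates Ras, read 10.87, 10.82, 10.72 and 10.64 with E2 and 6.65, 6.66, 6.45 and 6.56 with vehicle, 18.14-fold higher (log2 difference 4.18, SE 0.085, limma adjusted p = 4.68e-18). HSD11B2, which turns cortisol into cortisone, read 9.27, 9.38, 9.21 and 9.07 with E2 and 5.70, 5.70, 5.69 and 5.78 with vehicle, 11.45-fold higher (limma adjusted p = 3.1e-15). EGR3, an early-response zinc-finger factor, read 8.17, 7.69, 7.98 and 7.86 with E2 and 4.74, 4.60, 4.39 and 4.69 with vehicle, 9.99-fold higher (limma adjusted p = 7.09e-14). The groups of arrays were far apart for all 3 genes, and the vehicle means of HSD11B2 and EGR3 were below log2 6.11, the upper limit of the dimmest 25% of genes. KAZN, the cell-junction protein kazrin, rose by 2.60 on 2 of 3 probe sets. MICB, a ligand of the killer-cell receptor NKG2D, rose by 2.34, and FZD7, a Wnt receptor, by 1.98 on 2 of 2 probe sets.

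DLX2, RND3 and RGS2 had the 3 largest falls. DLX2, a homeodomain factor of forebrain development, read 5.78, 5.63, 5.36 and 5.602 with E2 and 9.13, 9.04, 8.87 and 8.86 with vehicle, 10.44-fold lower (log2 difference -3.38, SE 0.072, limma adjusted p = 1.08e-17), on 1 of 2 probe sets and to a dim E2 mean. RND3 read 8.51, 8.22, 8.54 and 8.62 with E2 and 11.13, 11.46, 11.24 and 11.42 with vehicle, 7.16-fold lower (limma adjusted p = 1.19e-16). RGS2, which shortens G-protein signals, read 7.29, 7.13, 7.53 and 7.13 with E2 and 10.12, 10.07, 10.13 and 10.05 with vehicle, 7.07-fold lower (limma adjusted p = 2.89e-17). No E2 array of these genes reached the vehicle arrays. NAV3, a microtubule-binding neuron navigator, fell by 2.32 on 1 of 3 probe sets, and RASL11B, a Ras-like protein, by 2.26 to a dim E2 mean. Further falls were 2.17 for the sulfatase ARSJ, 2.16 for the liprin PPFIBP2 and 2.04 for PPP1R3C, which directs a phosphatase to glycogen.

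**Figure D1:**
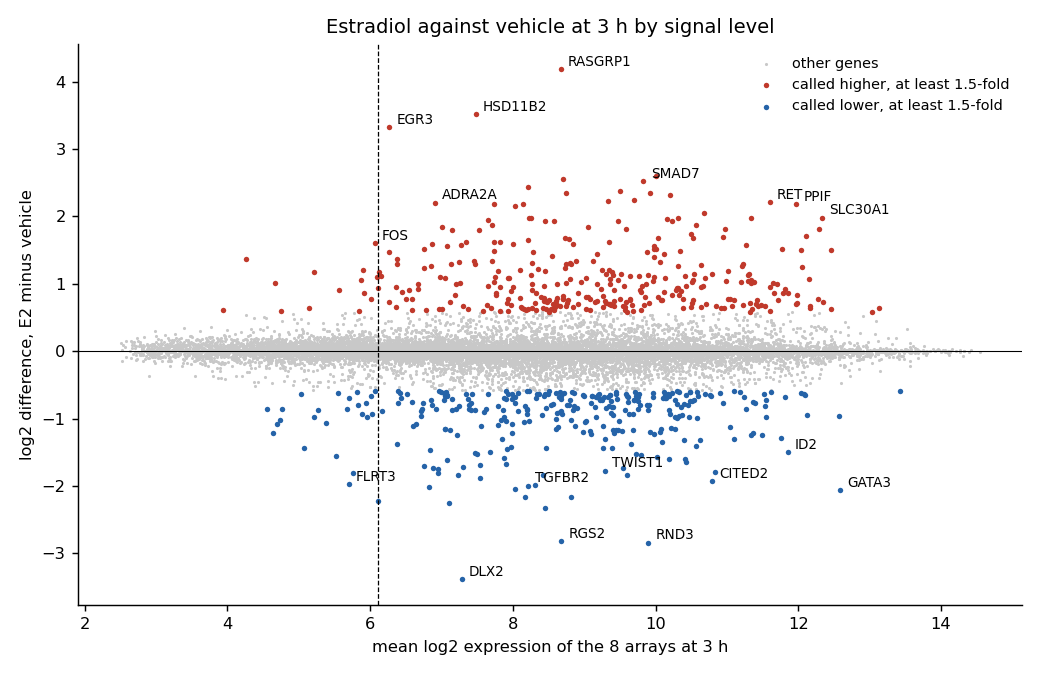
Log2 difference (E2 minus vehicle at 3 h) of each of the 11963 genes against its mean log2 level on the 8 arrays; coloured points are genes called by limma with at least a 1.5-fold change, and the dashed line marks the upper limit of the dimmest 25% of genes (log2 6.11). The 326 red and 309 blue genes lie mostly to the right of that line.

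The calls depended on how bright the probe set was. In the dimmest 25% of genes, with mean log2 levels up to 6.11, 8.43% were called, against 24.9% in the class from there to 7.94, 46.7% in the class up to 9.77 and 44.4% in the brightest. The spread between replicate arrays fell along the same order, from a median SD of 0.114 in the dimmest class through 0.0899 and 0.0629 to 0.0413 in the brightest. Over all called genes the median size of the log2 difference fell too, at 0.304, 0.296, 0.268 and 0.213 from dimmest to brightest. Among genes called at 1.5-fold or more it was 0.954, 0.956, 0.854 and 0.878, values held up in part by that limit. Brightness depends on the probes as well as on the RNA, so these classes rank probe sets and not transcripts.

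Some of the large changes touched the dimmest class. Among the 326 genes higher by at least 1.5-fold, 24 had a vehicle mean and no E2 mean below log2 6.11, and a further 7 had both means below it. Among the 309 lower genes, 27 had only the E2 mean below it and 14 had both. ADRA2A, the alpha-2A adrenergic receptor, read 8.17, 8.04, 7.95 and 7.86 on the E2 arrays and 5.77, 5.73, 5.78 and 5.93 on the vehicle arrays. Its rise of 2.20 (SE 0.13, limma adjusted p = 2.41e-11) therefore started from a dim signal. EGLN3, a prolyl hydroxylase that marks hypoxia-inducible factor for degradation, showed the reverse, with 7.78, 7.94, 7.73 and 7.88 on vehicle arrays and 5.82, 5.44, 6.09 and 5.94 on E2 arrays, a fall to a dim signal (-2.01, adjusted p = 1.28e-12 by limma).

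**Figure D2:**
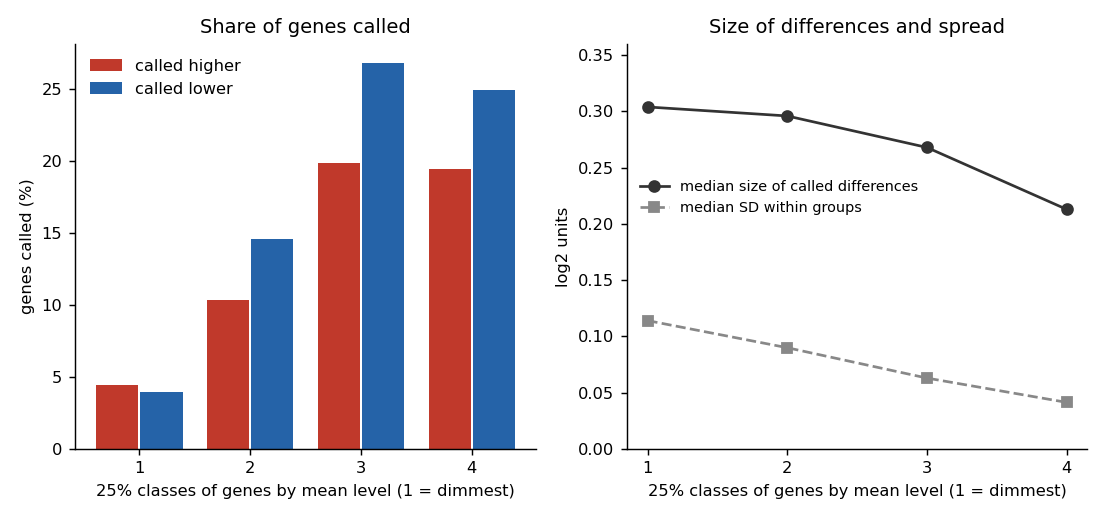
Left, percent of the genes of each level class (25% of genes each) called higher (red) or lower (blue) with E2; right, the median size of the called differences and the median SD within groups, both in log2 units. The share called is smallest in the dimmest class (8.43%), where the SD is largest (0.114).

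Families of transcription factors differed in the share of members called, and also in brightness. The dimmest class held 28 of 57 SOX, FOX, TBX and GATA factors and 15 of 52 homeobox genes. It held 9 of 35 AP-1, ATF, EGR and NR4A factors, 5 of 46 basic helix-loop-helix and ID factors and 1 of 29 receptor corepressors and coactivators. It also held 2 of 57 cytosolic ribosomal proteins, of which 0 were called. Shares called are not matched for brightness in any list, and its part in them was not tested. Members and lists were chosen with earlier results of these data known, so a share called is no independent evidence about a list. The share to set beside every list is the 31.1% of all genes. Of 46 basic helix-loop-helix and ID factors, which control differentiation through E-box sequences, 10 rose and 18 fell (60.9% called, median -0.05, against 31.1% and 0.00 for all genes). MYC, a factor of growth and ribosome production, read 9.92, 9.90, 10.04 and 9.81 with E2 and 7.34, 7.78, 7.52 and 7.64 with vehicle, 5.09-fold higher (limma adjusted p = 9.56e-14), and MXD1, a repressor at the same sequences, rose by 1.30. TWIST1, a factor of mesenchymal cells, fell by 1.78 (limma adjusted p = 3.71e-18). HEY2, a repressor downstream of Notch receptors, read 9.30, 9.18, 9.23 and 9.12 with E2 and 7.19, 7.25, 7.19 and 7.29 with vehicle, and rose 3.94-fold (log2 difference 1.98, SE 0.048, limma adjusted p = 5.67e-17). HES1, another Notch-related repressor, rose by 1.12 (adjusted p = 3.25e-13, limma), on 2 of 3 probe sets, and the probe set not called differed by -0.12. No array of one group overlapped the other for either gene. Of the ID proteins, which bind helix-loop-helix factors and keep them off DNA, ID1, ID2 and ID3 fell, and ID4 was not called (difference -0.12), but passed with the mean of all probe sets (-0.18) and without probe sets that can share sequence (-0.40). ID2 read 11.15, 11.09, 11.03 and 11.12 with E2 and 12.63, 12.70, 12.58 and 12.48 with vehicle, a 2.83-fold fall (limma adjusted p = 9.32e-16), and both of its probe sets were called lower. ID3 fell by 1.73 on the log2 scale (limma adjusted p = 1.07e-13) and ID1 by 0.89, with both E2 means below log2 6.11.

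Of 52 homeobox genes, 5 rose and 10 fell (28.8% called, median -0.01). The largest fall was that of DLX2, given above. PITX1, a homeodomain factor of hindlimb and pituitary development, read 8.58, 8.78, 8.68 and 8.48 with E2 against 6.58, 6.64, 6.84 and 6.64 with vehicle. It rose 3.87-fold (SE of the log2 difference 0.077, limma adjusted p = 7.84e-14), on both of its probe sets. A related pair of corepressors of TGF-beta signalling moved oppositely. TGIF1 fell from a vehicle mean of 10.03 to an E2 mean of 8.85 (difference -1.18, limma adjusted p = 1.95e-16), whereas TGIF2 rose from 8.46 to 9.90 (difference 1.44, limma adjusted p = 4.12e-15). POU3F2, a POU-domain factor of neural cells, fell by 1.75 to a dim E2 mean of 6.07.

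Among 57 SOX, FOX, TBX and GATA factors, 7 rose and 10 fell (29.8% called, median -0.02). GATA3, a factor of luminal breast epithelium, read 11.43, 11.54, 11.60 and 11.66 with E2 and 13.66, 13.59, 13.64 and 13.60 with vehicle and fell 4.19-fold (limma adjusted p = 1.72e-18) on 3 of 3 probe sets. FOXA1, the pioneer factor that opens chromatin for the estrogen receptor, read 10.28, 10.36, 10.37 and 10.74 on E2 arrays and 11.77, 11.77, 11.70 and 11.74 on vehicle arrays. Its fall of 1.30 on the log2 scale (SE 0.065, limma adjusted p = 3.05e-12) kept all E2 arrays below all vehicle arrays, and E2 replicate D was the highest of its group. FOXI1, a forkhead factor of ion-transporting epithelia, fell 3.55-fold, from 10.54, 10.52, 10.50 and 10.51 to 8.61, 8.61, 8.79 and 8.75 (limma adjusted p = 1.28e-17). GATA4, a zinc-finger factor of heart and gut, rose by 1.59 from a dim vehicle mean of 6.08. Outside this list, TOX3, a chromatin-associated HMG-box protein, fell by 1.88 on 3 of 3 probe sets (limma adjusted p = 1.42e-12).

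Corepressors and coactivators of nuclear receptors were called higher in 7 and lower in 11 of 29 cases (62.1%, against 31.1% of all genes; median -0.03). CITED2, which binds the coactivators CBP and p300, read 9.77, 9.68, 9.84 and 9.99 with E2 and 11.66, 11.83, 11.71 and 11.80 with vehicle. TLE1, a Groucho-type corepressor, read 9.54, 9.54, 9.73 and 9.59 with E2 and 11.23, 11.25, 11.22 and 11.26 with vehicle. The falls were 3.80-fold for CITED2 and 3.12-fold for TLE1 (limma adjusted p = 4.38e-16 and 3.56e-17), and every probe set of both genes was called lower. GREB1, a coactivator bound to the receptor, rose by 1.70. NRIP1, a corepressor that binds the liganded estrogen receptor, rose by 1.03 (SE 0.03, limma adjusted p = 8.28e-16) on both of its probe sets.

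Of 38 nuclear receptors, 9 rose and 6 fell (39.5% called, median 0.01). NR3C2, the mineralocorticoid receptor, fell by 1.17 (limma adjusted p = 5.15e-13), and PPARD, a fatty-acid-sensing receptor, rose by 0.89 (limma adjusted p = 1.49e-11) on 3 of 3 probe sets. Of 18 KLF and SP factors, 3 rose and 5 fell (44.4% called, median -0.11); without E2 replicate A only 1 was called higher. KLF5, a factor of epithelial growth, fell by 1.02 and KLF3 by 0.85. Of 35 AP-1, ATF, EGR and NR4A factors, 11 rose and 9 fell (57.1% called, median 0.07). Beside EGR3, the AP-1 subunits FOSL2 and FOS rose by 1.93 and 1.60 (limma adjusted p = 1.97e-16 and 4.32e-11). CEBPB, a leucine-zipper factor of secretory and inflammatory cells, rose by 0.71, with E2 arrays at 11.69, 11.70, 11.67 and 11.64 and vehicle arrays at 10.94, 10.97, 10.98 and 10.95, while NR4A2, an orphan receptor induced early by many stimuli, fell by 0.86 on 3 of 3 probe sets. EGR1, an early-response zinc-finger factor, was not called, with 6.53, 6.57, 6.63 and 6.44 on E2 arrays and 6.28, 6.40, 6.49 and 6.28 on vehicle arrays (difference 0.18), but passed the threshold when only the 8 arrays at 3 h were fitted (adjusted p = 0.0429) and with the mean of all probe sets (adjusted p = 0.0202, both limma). The 231 numbered ZNF genes split evenly, with 40 higher and 43 lower (35.9% called), and the extremes were ZNF107, higher by 1.34 (limma adjusted p = 3.85e-14), and ZNF365, lower by 0.98.

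**Figure D3:**
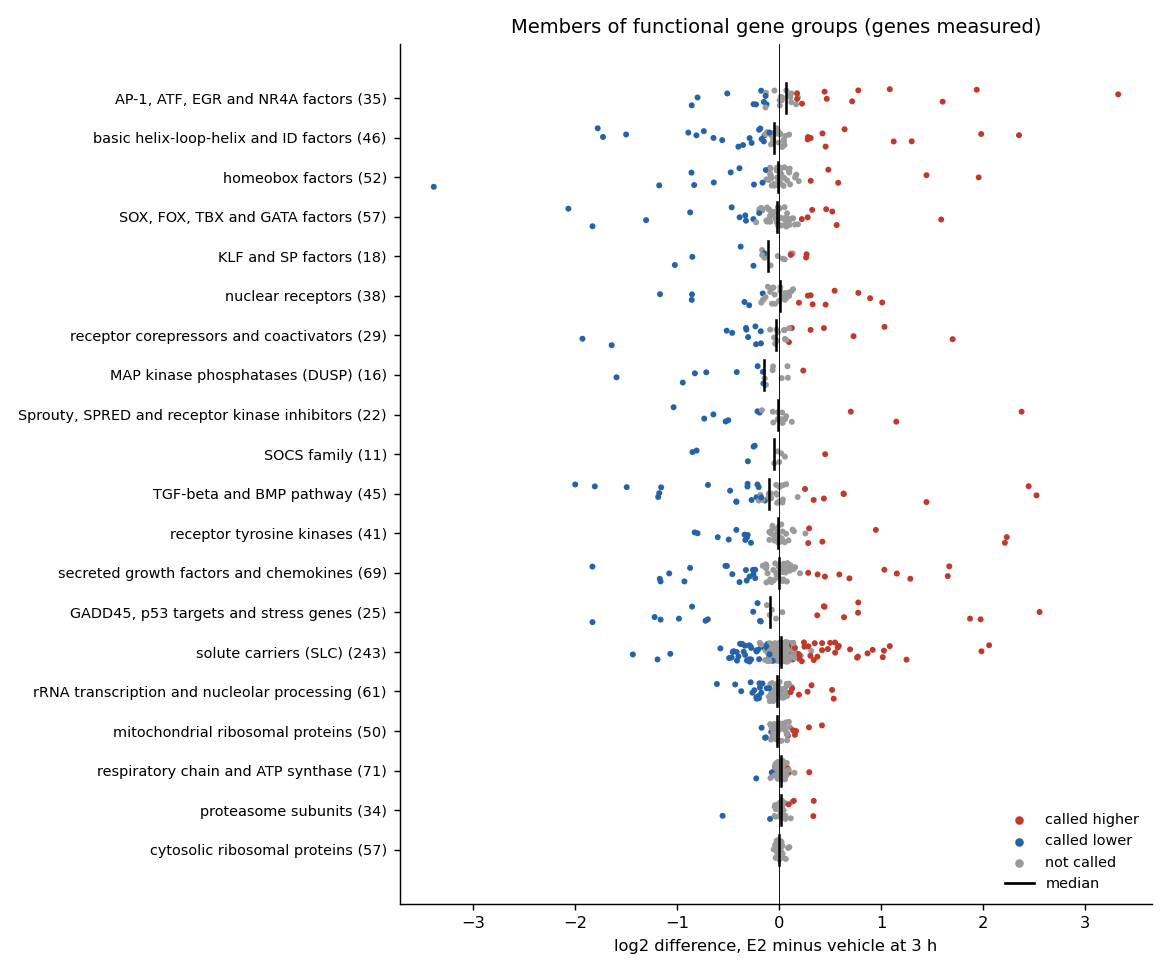
Log2 difference (E2 minus vehicle at 3 h) of every measured member of 20 gene groups, red where called higher, blue where called lower and grey where not called by limma; black bars are group medians and the number measured stands in parentheses. Phosphatases of the DUSP family, shown as MAP kinase phosphatases (DUSP), lie mostly left of 0 (8 of 16 called lower). Cytosolic ribosomal proteins lie at 0 (0 of 57 called).

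Lists of genes that restrain growth factor and cytokine signalling covered DUSP phosphatases, receptor-kinase inhibitors and the SOCS family. In all of them more members were called lower than higher, as over all genes (17.6% lower, 13.5% higher, 31.1% called). By at least 1.5-fold, 0 rose and 4 fell in the DUSP list, against 2.73% higher and 2.58% lower over all genes. The receptor-kinase inhibitor list then had 3 higher and 3 lower, and the SOCS list 0 higher and 2 lower. Phosphatases of the DUSP family, many of which switch off MAP kinases, were called lower in 8 of 16 cases and higher in 1 (56.2% called, median -0.15). DUSP6, specific for ERK kinases, read 9.56, 9.49, 9.78 and 9.63 with E2 and 11.14, 11.33, 11.18 and 11.19 with vehicle. Its 3.02-fold fall (log2 difference -1.59, SE 0.054, limma adjusted p = 9.13e-15) was seen on 3 of 3 probe sets, and no arrays overlapped. DUSP4 fell by 0.95, DUSP14 by 0.83 and DUSP1 by 0.72, and the riser was DUSP11 (0.24). The baseline arrays stood apart for these genes too: DUSP6 averaged 10.63 at 0 h, 11.21 with vehicle and 9.62 with E2, and DUSP1 averaged 9.53, 9.04 and 8.32.

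The Sprouty and SPRED proteins, inhibitors of Ras activation by receptor kinases, split. SPRY4 rose from vehicle values of 8.46, 8.19, 8.28 and 8.30 to E2 values of 10.73, 10.78, 10.67 and 10.54. SPRY1 went the other way, from 8.89, 8.75, 8.72 and 8.64 to 7.79, 7.71, 7.82 and 7.53, a fall of 1.04 (SE 0.069, limma adjusted p = 2.61e-10). SPRED2 also fell, by 0.73 on 1 of 3 probe sets, while PTPN1, a phosphatase that acts on receptor kinases, rose by 1.15 on 2 of 3. Over the 22 measured receptor-kinase inhibitors, 3 rose and 7 fell (45.5% called, median -0.01). Of the 11 members of the SOCS family and its relatives, which damp cytokine receptors, 1 rose and 5 fell (54.5% called, median -0.05), among them SOCS2 by 0.85 and SOCS6 by 0.81, each on 2 of 2 probe sets, while SOCS1 rose by 0.45.

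Genes of G-protein signalling changed in both directions, and the share called was below that of all genes in the RGS and phosphodiesterase lists. The dimmest class held 6 of the 17 RGS proteins and 8 of the 19 phosphodiesterases. ADRA2A, given above, rose. PTGER4, a prostaglandin E receptor that raises cyclic AMP, read 7.40, 7.17, 7.42 and 7.29 with E2 and 9.29, 9.36, 9.26 and 9.33 with vehicle and fell 3.96-fold (limma adjusted p = 6.91e-16) on both probe sets. GNAI1, the alpha subunit of an inhibitory G protein, fell 3.29-fold, from 8.23, 8.09, 8.22 and 8.12 with vehicle to 6.67, 6.37, 6.43 and 6.32 with E2 (limma adjusted p = 7.64e-14). E2 and vehicle arrays were separate for both. Of 17 RGS proteins, 3 rose and 2 fell (29.4% called), with RGS2 (-2.82) the lowest and RGS16 (1.03, limma adjusted p = 7.23e-10) the highest. Of 19 phosphodiesterases, which break down cyclic nucleotides, 1 rose and 3 fell (21.1% called). PDE4B fell by 2.22 on 2 of 3 probe sets to a dim E2 mean (limma adjusted p = 2.84e-15), and PDE2A rose by 0.28. CACNA1I, a calcium channel subunit, rose by 2.18 on its brightest probe set only, and the other 2 were not called.

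Components of TGF-beta and BMP signalling, which restrains epithelial growth, were called higher in 8 and lower in 18 of 45 measured genes (57.8% called, median -0.10). At least 1.5-fold changes were called in 5 upward and 7 downward. Over all genes 31.1% were called, 2.73% higher and 2.58% lower by at least 1.5-fold. SMAD7, an inhibitor of TGF-beta signalling, read 11.07, 11.20, 11.15 and 10.94 with E2 and 8.497, 8.59, 8.54 and 8.65 with vehicle, 5.74-fold higher (SE of the log2 difference 0.049, limma adjusted p = 3.04e-18). GDF15, a distant member of the ligand family, rose by 2.44, and TGIF2 by 1.44. Receptors were among those that fell. TGFBR2, the ligand-binding TGF-beta receptor, read 7.20, 6.996, 7.39 and 7.27 on E2 arrays and 9.15, 9.25, 9.18 and 9.29 on vehicle arrays, 3.997-fold lower (log2 difference -1.999, SE 0.062, limma adjusted p = 2e-15). Both of its probe sets were called, at differences of -1.999 and -0.19. ACVR1, a type I receptor for BMPs, fell by 1.16, from 10.80, 10.92, 10.78 and 10.88 to 9.63, 9.59, 9.75 and 9.78. SMAD1, which carries the BMP signal to the nucleus, read 8.94, 8.94, 8.99 and 8.90 with E2 and 10.14, 10.15, 10.19 and 10.04 with vehicle and fell by 1.19 (limma adjusted p = 1.24e-14) on 2 of 2 probe sets. SMAD6, an inhibitor of BMP signalling, fell by 1.81 on its brightest probe set to a dim E2 mean of 6.04, on 2 of 4 probe sets in all. BAMBI, a decoy receptor, fell by 1.49. The only SMAD6 probe set whose name carries no suffix for shared sequence differed by 0.02, with both group means below log2 6.11.

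**Figure D4:**
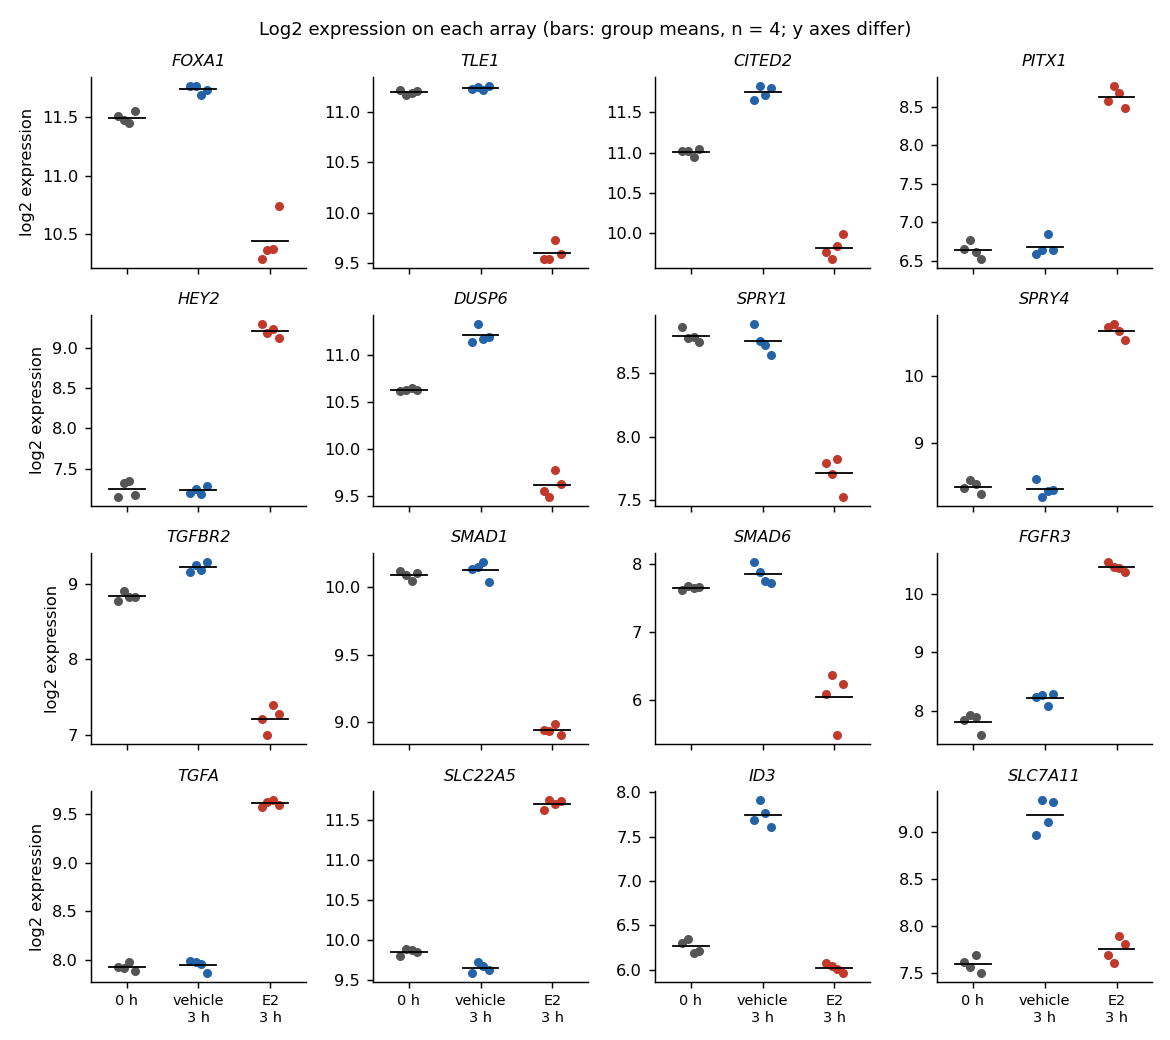
Log2 expression of 16 genes on each of the 4 arrays at 0 h (grey), 3 h vehicle (blue) and 3 h E2 (red); bars are group means and each panel has its own scale. E2 and vehicle arrays do not overlap in any panel, and for SLC7A11 the E2 arrays overlap the 0 h arrays in part.

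Receptor tyrosine kinases, the receptors of growth factors, were called higher in 6 and lower in 10 of 41 cases (39.0%, against 31.1% of all genes, median -0.02). RET, the receptor of GDNF-family ligands, read 12.68, 12.70, 12.70 and 12.74 with E2 and 10.52, 10.53, 10.45 and 10.48 with vehicle, 4.63-fold higher (SE of the log2 difference 0.029) on 3 of 3 probe sets. Its adjusted p (3.74e-20, limma) was the smallest of all genes. FGFR3, a fibroblast growth factor receptor, read 10.54, 10.45, 10.44 and 10.36 with E2 and 8.24, 8.26, 8.08 and 8.29 with vehicle. The 4.69-fold rise (log2 difference 2.23, SE 0.076, limma adjusted p = 9.11e-15) appeared on both probe sets. Its relative FGFR2 rose by 0.95 on the brightest probe set, and 4 of its 10 probe sets were called higher and 0 lower. ERBB2, the receptor targeted by trastuzumab, fell by 0.80 (limma adjusted p = 1.59e-12), with E2 arrays at 9.54, 9.55, 9.53 and 9.43 and vehicle arrays at 10.31, 10.31, 10.31 and 10.32. EPHB4, a receptor for ephrin-B2, fell by 0.83. Both genes fell on 2 of 2 probe sets.

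Of 69 secreted growth factors and chemokines, 10 rose and 17 fell (39.1% called, median 0.00). TGFA, a ligand of the EGF receptor, read 9.58, 9.63, 9.65 and 9.60 with E2 and 7.99, 7.98, 7.96 and 7.86 with vehicle, a 3.17-fold rise (SE of the log2 difference 0.035, limma adjusted p = 1.03e-17) on 3 of 3 probe sets. WNT4, a Wnt ligand of mammary development, rose by 1.65. SEMA3F, a secreted guidance cue that binds neuropilins, rose by 1.28 (limma adjusted p = 3.09e-17) on 3 of 3. VEGFC, the growth factor of lymphatic vessels, fell 3.56-fold, from 8.05, 8.22, 8.10 and 8.22 with vehicle to 6.51, 6.01, 6.31 and 6.45 with E2. A further guidance ligand, SEMA3G, rose by 1.32, and the membrane semaphorin SEMA4C fell by 0.85. Over 71 axon guidance and cytoskeletal regulators, 12 rose and 14 fell (36.6% called, median 0.01). Cell-surface adhesion genes among the largest falls were FLRT3 (1.98 lower, from a vehicle mean of 6.69 to a dim E2 mean of 4.71), the cadherin CDH10 (1.81 lower, also to a dim mean of 4.86) and AMIGO2 (1.73 lower, at 8.67 with E2).

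Proteins that load or unload small GTPases changed in both directions. Of 65 exchange factors and GTPase-activating proteins, 12 rose and 19 fell (47.7% called, median -0.02). The largest rise was that of RASGRP1, given above. ARHGEF18, a guanine nucleotide exchange factor, read 10.84, 10.86, 10.82 and 10.75 with E2 and 8.58, 8.61, 8.66 and 8.46 with vehicle, 4.73-fold higher (limma adjusted p = 1.55e-17). RAPGEF5, an exchange factor for Rap proteins, fell by 1.52 and ARHGAP12 by 1.32 (limma adjusted p = 1.17e-15 and 9.57e-15). The arrays of the 2 groups were separate for all 3 genes. GEM, a GTPase that lowers calcium-channel activity, fell by 1.11.

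Of 243 solute carriers, which move ions and metabolites across membranes, 42 rose and 41 fell (34.2% called, median 0.02, against 31.1% and 0.00 for all genes). By at least 1.5-fold, 11 of the 243 rose and 3 fell, against 2.73% higher and 2.58% lower over all genes. SLC22A5, the carnitine transporter, read 11.62, 11.75, 11.71 and 11.74 on E2 arrays and 9.58, 9.72, 9.67 and 9.63 on vehicle arrays, 4.16-fold higher (SE of the log2 difference 0.039, limma adjusted p = 2.47e-18). SLC30A1, which exports zinc from cells, rose 3.95-fold, from 11.28, 11.38, 11.34 and 11.36 to 13.35, 13.30, 13.34 and 13.29. Its vehicle mean of 11.34 lay below the 0 h mean of 12.07, and its E2 mean of 13.32 above it. Of 30 amino acid transporters, 9 rose and 8 fell (56.7% called, median 0.03). SLC7A5, the large neutral amino acid exchanger, rose by 1.25 (limma adjusted p = 1.42e-14), and SLC1A1, a glutamate carrier, fell by 1.19 (limma adjusted p = 7.53e-14). SLC7A11, the cystine importer, fell by 1.43 on 3 of 3 probe sets.

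Enzymes among the largest rises served unlike pathways. PCK1, the key enzyme of gluconeogenesis, read 9.40, 9.25, 9.27 and 9.05 with E2 and 7.05, 6.92, 7.25 and 6.99 with vehicle, 4.56-fold higher (SE of the log2 difference 0.076, limma adjusted p = 1.22e-14). At 0 h PCK1 read 8.36, 8.58, 8.49 and 8.42, between the 2 groups at 3 h. PPIF, the cyclophilin of the mitochondrial permeability pore, rose 4.53-fold, from 10.90, 10.92, 10.83 and 10.87 to 12.89, 13.13, 13.13 and 13.09, on 2 of 2 probe sets. TIPARP, which ADP-ribosylates and restrains the aryl hydrocarbon receptor, rose 3.81-fold, from 9.17, 9.42, 9.14 and 9.30 to 11.28, 11.22, 11.14 and 11.12 (limma adjusted p = 3.01e-15). Of 48 steroid and retinoid enzymes, 8 rose and 6 fell (29.2% called, median 0.03), with HSD11B2 (3.52) the highest, AKR1C3 (-0.35) the lowest, and the dehydrogenases DHRS2 and DHRS3 higher by 1.03 and 0.91, the latter from a dim vehicle mean. Of 36 genes of polyamine, nucleotide and one-carbon synthesis, 3 rose and 7 fell (27.8% called). AMD1, which makes the donor for polyamine synthesis, rose by 0.77, while ODC1, the enzyme that makes putrescine, was 0.49 lower than with vehicle. ODC1 averaged 8.68 at 0 h, 9.50 with vehicle and 9.01 with E2, so that it lay above the 0 h level in both groups.

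Ribosome production showed small changes. Of 61 genes of rRNA transcription and nucleolar processing, 7 rose and 16 fell (37.7% called, median -0.03, against 31.1% of all genes). By at least 1.5-fold, 2.73% of all genes were higher and 2.58% lower, and in this list 0 were higher and 1 was lower. That gene was UTP20, a component of the small-subunit processome, which fell by 0.61 (limma adjusted p = 2.61e-12). The highest was DDX10, an RNA helicase, at 0.53. Of 26 aminoacyl-tRNA synthetases, 8 rose and 3 fell (42.3% called, median 0.03), TARS1 by 0.68 upward. Among 64 heat shock proteins and cochaperones, 14 rose and 17 fell (48.4% called, median -0.02), with BAG2 (-0.47) the lowest. HSPB8, a small heat shock protein, rose by 1.72, and FKBP4, a cochaperone of steroid receptors, rose by 0.62 (limma adjusted p = 5.86e-13) on 2 of 2 probe sets.

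Housekeeping machinery was seldom called. For 57 cytosolic ribosomal protein genes the limma test called 0, with 0 at an unadjusted p under 0.05, and the log2 differences ran from -0.05 to 0.10 at a median level of 13.38. With the mean of all probe sets in place of the brightest, 1 was called higher. Respiratory chain and ATP synthase genes, assembly factors included, were called higher in 4 and lower in 2 of 71 cases (8.45%), proteasome subunits in 4 and 2 of 34 (17.6%) and mitochondrial ribosomal proteins in 6 and 4 of 50, all below the 31.1% of all genes. These few calls changed with single arrays and with the scaling: leaving out E2 replicate A gave 2 higher and 1 lower respiratory genes, leaving out E2 replicate C gave 2 lower mitochondrial ribosomal proteins, and removing each array's level trend gave 8 higher proteasome subunits.

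Genes of growth control and survival moved on both sides. Of 32 G1 cyclins, kinases, E2Fs and inhibitors, 8 rose and 9 fell (53.1% called, median -0.02). CCND1, the cyclin that starts the passage through G1, read 12.83, 12.80, 12.77 and 12.78 with E2 and 11.29, 11.34, 11.28 and 11.23 with vehicle, 2.84-fold higher (limma adjusted p = 2.5e-14) on 2 of 2 probe sets. E2F5, a repressive E2F, fell by 0.89, and CDKN1B, the kinase inhibitor p27, fell by 0.31 (limma adjusted p = 5.86e-07). Of 32 BCL2-family and death receptor genes, 5 rose and 9 fell (43.8% called, median -0.04). PMAIP1, the pro-apoptotic protein NOXA, read 9.56, 9.55, 9.52 and 9.57 with E2 and 7.72, 7.69, 7.56 and 7.48 with vehicle and rose 3.83-fold (limma adjusted p = 1.33e-14). BIK, another pro-apoptotic protein, fell by 1.12. BCL2, which protects cells from apoptosis, rose by 0.47, on 2 of 4 probe sets. MCL1, a survival protein that PMAIP1 binds, was not called on its brightest probe set, with a difference of 0.00, while 2 of its 5 probe sets were called higher.

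Of 25 GADD45, p53-target and stress genes, 80.0% were called, 9 higher and 11 lower (median -0.09), against 31.1% of all genes. This list was chosen with earlier results known and had 0 members in the dimmest class, so its share is no independent evidence. GADD45B and GADD45G are growth-arrest and DNA-damage proteins. GADD45B rose by 2.55 on 4 of 4 probe sets (limma adjusted p = 2.47e-18). GADD45G read 9.29, 9.31, 9.25 and 9.14 with E2 and 7.36, 7.08, 7.33 and 7.32 with vehicle, 3.93-fold higher (SE of the log2 difference 0.078, limma adjusted p = 9.14e-14). MDM2, the ligase that degrades p53, rose by 1.87 (limma adjusted p = 1.27e-15) on 4 of 5 probe sets. TRIB1, a pseudokinase that targets C/EBP factors, fell 3.56-fold, from 9.36, 9.44, 9.33 and 9.20 to 7.47, 7.34, 7.58 and 7.61. SESN1, a sestrin that lowers mTORC1 activity, fell by 1.16 (limma adjusted p = 2.84e-15). Outside this list, OSGIN1, a protein induced by oxidative stress, rose 4.48-fold, from 6.92, 7.05, 6.91 and 6.92 to 9.13, 9.21, 9.02 and 9.08 (limma adjusted p = 6.17e-16). Regulators of mRNA decay and BTG/TOB proteins were called higher in 8 and lower in 7 of 24 cases (62.5% called, median 0.02). ZFP36, which speeds the decay of AU-rich mRNAs, rose by 1.29, and TOB1 and TOB2 by 0.83 and 0.76, while the decapping enzyme DCP2 (-0.48) was the lowest. Of 20 NF-kappaB inhibitors and subunits, 6 rose and 5 fell, with the subunit REL lower by 1.18 (limma adjusted p = 2.17e-14) and the ligase PELI1 higher by 0.81.

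Several of the largest and most even changes were in genes outside these lists. EEIG1, described as an estrogen-induced gene of osteoclast differentiation, read 11.12, 11.13, 11.20 and 11.13 with E2 and 9.17, 9.22, 9.17 and 9.15 with vehicle. WWC1, the Hippo-pathway scaffold KIBRA, read 11.36, 11.29, 11.36 and 11.21 with E2 and 9.31, 9.32, 9.34 and 9.34 with vehicle. ASB13, a substrate adaptor of cullin ubiquitin ligases, read 11.35, 11.37, 11.39 and 11.31 with E2 and 8.96, 8.97, 9.10 and 9.11 with vehicle. All 3 rose, 3.91-fold, 3.93-fold and 4.99-fold (limma adjusted p = 2.28e-19, 6.03e-19 and 2.63e-18), with wide gaps between the groups. The pseudogene GUSBP14 fell 3.47-fold on 2 of 2 probe sets, from 11.73, 11.75, 11.69 and 11.75 to 9.96, 9.94, 9.88 and 9.96. Its brightest probe set is of the kind that can share sequence with related copies, so the copy that fell is uncertain. FAM13A, a protein with a GTPase-activating domain, fell by 1.70 to a dim E2 mean, the membrane protein TM4SF1 by 1.68 and ENC1, an actin-binding protein, by 1.67.

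Structural genes differed by list, in the share called and in brightness. The dimmest class held 20 of 32 keratins, 41 of 101 integrin and matrix genes and 8 of 33 cell junction genes. Of 32 keratins, 5 rose and 1 fell (18.8% called, median 0.06), and KRT19, a luminal keratin, rose by 0.59 from an already high vehicle mean of 12.74. Only 3 keratins were called higher without vehicle replicate B or vehicle replicate C. KRT13 rose by 1.17 within the dimmest 25% of genes, and KRT23 fell by 0.54. Of 101 integrin and matrix genes, 11 rose and 10 fell (20.8% called, median 0.00), with 7 higher when vehicle replicate C was left out, and LAMC1, a laminin chain, rose by 0.67 on 2 of 2 probe sets, while fibronectin, FN1, fell by 0.57 on its brightest probe set and differed by 0.04 on a dim one with a plain name. Of 33 cell junction genes, 6 rose and 11 fell (51.5% called, median -0.04), with OCLN, the tight-junction protein occludin, lower by 0.92 and PARD6B, a polarity protein, higher by 1.34. TJP3, a scaffold of tight junctions, rose by 0.81 (limma adjusted p = 6.52e-12).

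Lists of genes known as estrogen-induced or estrogen-repressed in ductal breast cancer lines were assembled with results of these data known, so their counts are no independent evidence of direction. Of 37 measured genes of the induced list, 29 rose and 3 fell (86.5% called, median 0.62). SIAH2, a ubiquitin ligase, rose by 1.82, and IRS1, an adaptor of the insulin receptor, fell by 0.85. Of 33 of the repressed list, 4 rose and 22 fell (78.8% called, median -0.38), among them VAV3, a guanine nucleotide exchange factor, by 0.98 on 2 of 2 probe sets. ELF3, an epithelial ETS factor, rose by 1.15, with E2 arrays at 9.89, 9.87, 9.91 and 9.84 and vehicle arrays at 8.72, 8.77, 8.60 and 8.81 (limma adjusted p = 4.86e-15). TFF1, a secreted trefoil protein, rose by 0.12 from a vehicle mean of 13.51, and PGR, the progesterone receptor, by 1.01 with both means below log2 6.11. ESR1, the estrogen receptor itself, fell by 0.29 with 8 of 9 probe sets called lower.

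Position against the untreated cells at 0 h is a description that reuses the same E2 arrays, and vehicle arrays are shared by any comparison with vehicle. For all 326 genes called higher by at least 1.5-fold, every E2 array lay above every 0 h array, a position held by 15.6% of all genes. Of the 309 genes lower by at least 1.5-fold, 279 had every E2 array below every 0 h array (19.5% of all genes), 21 overlapped the 0 h arrays and 9 lay wholly above them. SLC7A11 was of the overlapping kind, with 7.61, 7.56, 7.69 and 7.49 at 0 h, 8.96, 9.34, 9.11 and 9.32 with vehicle and 7.68, 7.61, 7.89 and 7.80 with E2. HBEGF, an EGF-receptor ligand, averaged 6.78 at 0 h, 7.58 with vehicle and 6.71 with E2, and AHR, the dioxin receptor, averaged 8.97, 9.68 and 9.04. For these genes it was the vehicle arrays that stood apart. CORO1C, an actin-binding coronin, was 1 of the 9, with E2 arrays at 10.41, 10.40, 10.51 and 10.49 between 0 h arrays at 10.22, 10.27, 10.25 and 10.21 and vehicle arrays at 11.02, 11.17, 11.07 and 11.19. TUBB2A, a beta-tubulin, averaged 9.57 at 0 h, 10.78 with vehicle and 10.18 with E2. Vehicle arrays had moved from 0 h in many more genes. Of the 309 lower genes, 176 had every vehicle array above every 0 h array, 74 overlapped and 59 lay wholly below. Of the 326 higher genes, 96 had every vehicle array below every 0 h array, 176 overlapped and 54 lay wholly above. Over all genes, vehicle and 0 h arrays did not overlap for 25.4%, both directions together. The called genes were selected on these same vehicle arrays, so a lean of such counts to 1 side is in part built in. ID3 averaged 6.26 at 0 h, 7.75 with vehicle and 6.02 with E2. Vehicle cells at 3 h differed from the 0 h cells in time and in the addition of ethanol, and these cannot be told apart here.

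Agreement between probe sets of a gene was tested over 19064 probe sets, of which 29.4% were called. Several probe sets were available for 4310 genes, of which 17.0% had every probe set called one way and 26 (0.603%) had both directions. At 1.5-fold or more, 264 of the 4310 were called. Of these, 199 had every probe set called in the same direction (75.4%), 65 had some called and 0 had both directions. The 264 were chosen by a call on the brightest probe set, so 75.4% is raised in part by selection. The 0 with both directions is close to the 0.603% of all such genes. Of the 1297 genes called at less than 1.5-fold, 534 had every probe set called one way (41.2%), 722 had some, 22 had none and 19 had both directions. The second-brightest probe set was called in the same direction as the brightest for 226 of the 264 genes (85.6%), and in the opposite direction for 0.

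How far the second probe set lay below the brightest went with its agreement. Where the brightness gap was under 1 on the log2 scale, 114 of 124 second probe sets were called the same way (91.9%) and their median difference was 0.964 of that of the brightest. Gaps of 1 to 2 gave 56 of 66 (84.8%, ratio 0.852) and gaps of 2 to 4 gave 46 of 56 (82.1%, ratio 0.525). Where the gap was over 4, 10 of 18 were called the same way (55.6%) and the median ratio was 0.397. GDF15, a stress-induced cytokine, rested on a single probe set: the brightest rose by 2.44, while the other, a probe set dim in both groups, differed by 0.09 and was not called.

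**Figure D5:**
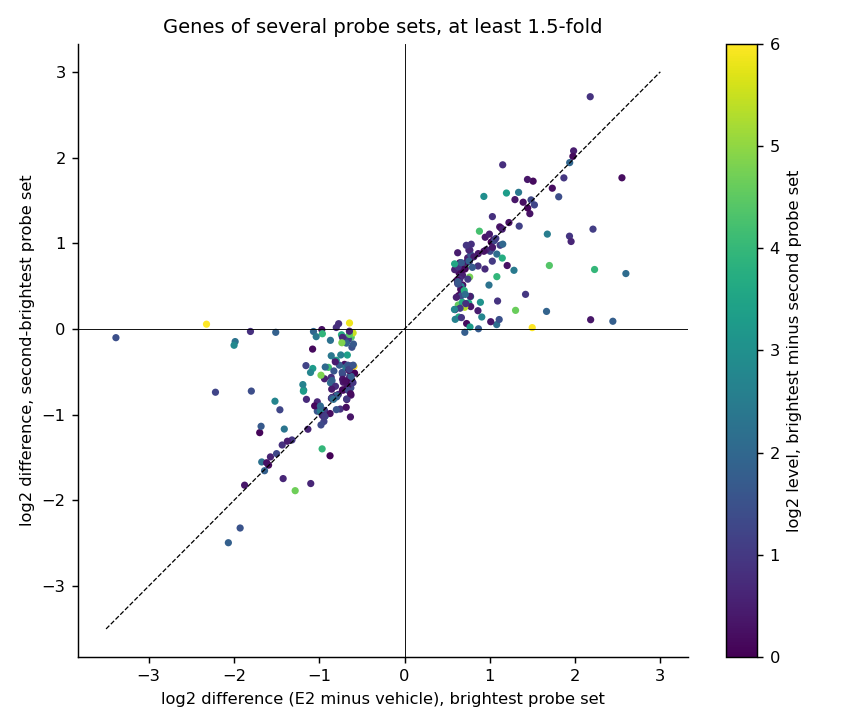
Log2 difference (E2 minus vehicle at 3 h) of the second-brightest probe set against that of the brightest for the 264 genes called at 1.5-fold or more; colour is the difference in log2 brightness between the 2 probe sets, and the dashed line marks equality. Where the gap is under 1 the points lie near the line (median ratio 0.964), and none of the second probe sets was called in the opposite direction.

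All 19 called genes with opposite probe set calls changed by less than 1.5-fold, and the 6 with the smallest p were DDX17, PLEKHM1, SCARB1, SIPA1L1, SRSF7 and ZBTB1. SRSF7, a splicing factor, rose by 0.34 on its brightest probe set and by 0.34 on the second, and fell by 0.16 on the third. DDX17, an RNA helicase and receptor coregulator, rose by 0.15 on its brightest probe set and fell by 0.43 on the second. SIPA1L1, a Rap GTPase-activating protein, fell by 0.18 on the brightest and rose by 0.17 on the other. Genes whose brightest probe set had a plain name were called in 30.2% of cases, those with the suffix s, for probe sets that can match several transcripts of a gene or family, in 34.0%, and those with the suffix x, for probes that can match unrelated sequence, in 24.5%.

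Promoter windows were read from RefSeq on GRCh38.p14, 250 bases before to 50 bases after each start, for 9563 of the 11963 genes (14058 windows, several for some genes). The palindromic estrogen response element, GGTCA followed by any 3 bases and TGACC, occurred in 3 of these windows, and in 0 of those of genes changed at least 1.5-fold. A single arm of it, GGTCA on either strand, counted also inside the palindrome, occurred in 34.8% of all windows, 32.4% of those of genes higher by at least 1.5-fold, 33.1% of those lower by at least 1.5-fold and 35.2% of those of genes not called. The 3 windows with the palindrome are shown because they are all there were, and SPRY4 as a strongly raised gene with 3 single arms; these genes were chosen after their values were seen. Capitals mark the palindrome in the first 3 and the single arms in SPRY4, each sequence running 5' to 3' on the gene's strand.
MROH7: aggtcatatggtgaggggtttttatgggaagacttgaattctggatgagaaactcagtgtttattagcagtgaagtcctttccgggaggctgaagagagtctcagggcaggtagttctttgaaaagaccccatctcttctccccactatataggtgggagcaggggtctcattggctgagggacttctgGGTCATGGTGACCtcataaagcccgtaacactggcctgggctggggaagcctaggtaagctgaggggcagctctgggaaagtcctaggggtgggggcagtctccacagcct
PRR16: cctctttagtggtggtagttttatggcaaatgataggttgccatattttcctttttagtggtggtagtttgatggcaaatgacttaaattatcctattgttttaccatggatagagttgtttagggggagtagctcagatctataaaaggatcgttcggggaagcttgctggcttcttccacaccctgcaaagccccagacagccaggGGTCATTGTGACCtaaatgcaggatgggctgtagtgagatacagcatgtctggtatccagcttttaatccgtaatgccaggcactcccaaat
ZNF669: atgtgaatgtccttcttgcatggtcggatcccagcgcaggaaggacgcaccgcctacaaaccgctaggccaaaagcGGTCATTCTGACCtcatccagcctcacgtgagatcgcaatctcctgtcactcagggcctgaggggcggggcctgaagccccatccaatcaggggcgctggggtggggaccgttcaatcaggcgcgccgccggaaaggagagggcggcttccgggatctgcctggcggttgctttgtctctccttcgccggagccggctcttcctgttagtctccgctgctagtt
SPRY4: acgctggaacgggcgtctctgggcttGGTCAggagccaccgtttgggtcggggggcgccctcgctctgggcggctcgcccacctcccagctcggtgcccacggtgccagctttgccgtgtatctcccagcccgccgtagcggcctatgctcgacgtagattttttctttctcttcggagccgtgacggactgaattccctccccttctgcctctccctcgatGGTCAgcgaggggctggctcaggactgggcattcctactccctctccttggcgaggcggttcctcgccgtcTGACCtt

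The MROH7 window is chr1:54641536-54641835 on the plus strand, and MROH7 rose by 0.25, from 4.98, 4.68, 4.97 and 4.98 with vehicle to 5.10, 5.32, 5.07 and 5.10 with E2, all below log2 6.11. PRR16 has its window at chr5:120531214-120531513 on the plus strand, and it fell by 0.44, from 5.22, 5.11, 5.23 and 5.04 to 4.87, 4.63, 4.80 and 4.56, also dim. ZNF669 lies on the minus strand with its window at chr1:247104307-247104606, and it rose by 0.35, from 7.46, 7.59, 7.61 and 7.51 to 7.81, 8.07, 7.90 and 7.80 (limma adjusted p = 0.000221). All 3 changes were under 1.5-fold and passed the test. The SPRY4 window is chr5:142324198-142324497 on the minus strand. A match of letters is a description of these windows only.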

How the data were processed

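RNA of SUM44 cells was measured on 1-colour arrays. The authors deposited log2 values per probe set; RMA and the affy package are named in the submitters' processing notes, and versions are not given in the sources used here. Of 22277 probe sets, 62 controls were left out and 19064 had a single symbol; for each of the 11963 genes the brightest probe set, by its mean of all 20 arrays, was kept. Probe sets of several symbols (1043) or none (2108) were fitted separately.

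Tests were two-sided and used limma (version 3.58.1, R 4.3.3). Its lmFit and eBayes were run on the values of all 20 arrays, with a mean fitted for each group. Benjamini-Hochberg adjustment was over all genes, with a threshold of 0.05. A fold change is 2 to the power of the log2 difference. The fit was tested on simulated data. The number of arrays limits the precision, and no scan date was used.

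Replicate letters A to D recur in every group. Deviations of same-letter arrays correlated at -0.0293 to 0.0126, so the letters were not taken as pairs. No pair of arrays held identical values.

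Genes picked for naming were, among called genes whose E2 and vehicle arrays did not overlap, the 30 largest increases and 30 largest decreases. Each list gave the 4 or fewer members of lowest p and, among its members not called, a few of lowest p. Added to these were the 6 genes of opposite probe sets with the smallest p, and ESR1, PGR, GREB1 and TFF1. The text names 138 of these 287, and every one of the largest increases and decreases is among them. ACVR1, AHR, AKR1C3, BAG2, BAMBI, CORO1C, DCP2, DUSP11, EGR1, FGFR2, FOS, HBEGF, HES1, ID1, IRS1, MCL1, MROH7, MXD1, PARD6B, PRR16, SMAD1, SOCS1, SPRY1, TUBB2A, WNT4, ZNF365 and ZNF669 fall outside that rule and were chosen after their values were seen. The result of a further gene list is not reported here. Members and lists were chosen with earlier results of these data known.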

Additional observations from a re-analysis of the deposited data

Results flagged for a closer look

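In groups of 4 arrays, a single array stood far from the other 3 by Dixon's gap test in 15 of 330 groups, over the 165 genes named in the text; chance gives about 1 group in 20. Vehicle replicate B accounted for 7 of these. It read 8.29 for BAMBI (others 8.46 to 8.47), 7.08 for GADD45G (others 7.32 to 7.36), 10.83 for LAMC1 (others at 10.70), 4.68 for MROH7 (others 4.97 to 4.98), 7.05 for OSGIN1 (others 6.91 to 6.92), 8.59 for PLEKHM1 (others 8.67 to 8.68) and 11.63 for TOB1 (others 11.53 to 11.55). E2 replicate B read 5.32 for MROH7 (others 5.07 to 5.10), 8.09 for OCLN (others 8.17 to 8.18) and 12.31 for TOB1 (others 12.41 to 12.42). E2 replicate A read 11.31 for CDKN1B (others 11.18 to 11.20) and 10.19 for SPRED2 (others at 10.13). E2 replicate D read 9.40 for ZNF107 (others 9.60 to 9.63). Vehicle replicate D read 5.78 for HSD11B2 (others 5.69 to 5.70) and 8.16 for TJP3 (others 8.34 to 8.36). In each of these genes the 4 E2 arrays still lay apart from the 4 vehicle arrays.

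Probe sets to which the annotation used here gives no symbol also responded, outside the comparison of genes. Of 2108 such probe sets, 145 were higher and 209 lower with E2 (16.8%, limma with adjustment over all probe sets), against 29.0% of probe sets with a single symbol. The largest differences among them were -2.488 for 205020_s_at and -1.585 for 207142_at downward, and 1.963 for 207760_s_at and 1.682 for 207181_s_at upward.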

How the results depend on the processing

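Of 3248 recomputed log2 differences of the 165 genes named in the text, 3214 kept their direction and their side of the threshold. These covered 12 alternatives and 8 single arrays left out. Several alternatives (the fit of only the 3 h arrays, the replicate block, an adjusted p threshold of 0.01) leave the log2 difference unchanged. Most named genes were also picked by size of change or low p, so this count is no independent evidence of stability. Calls lost in the test against a fold of 1.2 are not listed by gene. With the mean of all probe sets the difference turned for DDX17 (-0.0365), PLEKHM1 (0.0174) and ZBTB1 (0.0651), SIPA1L1 lost its call (-0.00697), and EGR1 (0.165) and ID4 (-0.177) gained one. EGR1 also passed with only the 8 arrays at 3 h (0.183), and ID4 with array weights (-0.155). Without probe sets of suffix s or x it turned for FN1 (0.0359), HES1 (-0.118), SIPA1L1 (0.166) and SMAD6 (0.0196), ID4 gained a call (-0.404), GDF15 and FGFR2 lost their calls (0.0899 and 0.228), and 2377 genes were called, 1046 higher and 1331 lower, 217 higher by at least 1.5-fold, of 8369 tested. Testing against a fold of 1.2 left 1029 genes, 501 higher and 528 lower, and 192 genes with every probe set called one way, as that test asks for a larger change by construction. Leaving out single arrays gave 3444 to 3709 called genes. With the replicate block 3665 genes were called, 1605 higher and 2060 lower, and 723 had every probe set called one way. Same-letter arrays did not deviate together, and no E2 array deviated most like the vehicle array of its own letter. Genes of small change in the dimmest 25% are the least sure, since spread there was largest.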
